A study of Brassica oleracea var. italica with 2 samples.

Results

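miR172 is a conserved family of plant microRNAs (miRNAs, small RNAs that guide the silencing of matching mRNAs), and its levels were compared here between 2 broccoli genotypes that differ in the capacity to form heads in warmth. The members are all records of the deposited table of known miRNAs named miR172, whatever the species prefix, letter or star, and for which raw counts were given. They were 10 of the 169 known miRNA records with counts. A further 21 miR172 records, of 1231 without counts in the table, had only a position and a sequence. The choice by name used no measured value, while the limit to records with raw counts follows from which records were given them.

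Small RNA from shoot apexes was sequenced in 1 library of the heat-tolerant (HT) genotype, labelled with a high capacity to form curds, and 1 library of the heat-sensitive (HS) genotype, labelled with a low one. The study's methods name the lines 'B295' (HT) and 'BR1 op' (HS) and give them nearly isogenic backgrounds, and how many plants went into a library is not given in the sources used here. Both were 54 days old by the labels (the study's methods give another age) and grew with 18 h of light and 6 h of dark, the last 2 weeks at the temperature of the treatment, 22 °C, which the study regards as heat stress for head formation. Both libraries come from this temperature, and no library of cooler plants was analysed here. The libraries held 27069903 (HT) and 26253036 (HS) reads. The counts of the known miRNA records summed to 38431 and 28582. The 169 records hold 151 distinct sequences, so a read can stand in more than 1 count and the sums are not numbers of separate reads. The study itself gives far larger numbers of known miRNA reads, and the gap was not examined here. With 1 library per genotype a difference has no replicate check in the sequencing, so each test compares 2 libraries and not the genotypes. The study also measured selected miRNAs, miR172d among them, by stem-loop qRT-PCR and reports patterns mostly like those of its sequencing. For miR172d it reports the same pattern in a further heat-tolerant line, 'AVS1'. Those measurements were not analysed here. The tables hold miRNAs only, so the labelled tissue could not be checked against marker genes.

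In Arabidopsis, miR172 pairs with a site in the mRNAs of AP2 and its relatives TOE1, TOE2 and SMZ, transcription factors that delay flowering and shape floral organs, and lowers their output by blocking translation and by cleavage. Its own level is known to rise as the plant ages: the younger plant's miR156 holds back SPL transcription factors, and SPL proteins turn on miR172 genes once miR156 has declined. A miR172 hairpin gives a duplex of 2 strands, the mature miRNA from the 3′ arm and its partner, the miRNA*, from the 5′ arm, which is usually degraded.

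The sequences of the records with counts show which arm each comes from and how little separates the members. They are printed 5′ to 3′ in DNA letters, as deposited, and the capitals mark bases 2 to 8, the seed. The names are those of the study without its species prefix. Of the 10 records, 6 were of the mature arm.
miR172d: aGAATCTTgatgatgctgcag
miR172e: gGAATCTTgatgatgctgca
miR172: aGAATCCTgatgatgctgcag
miR172c: gAGAATCTtgatgatgctgcag
miR172g: tGAGAATCttgatgatgctgcat
miR172f: gAATCTTGatgatgctgcat

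The other 4 were of the miRNA* arm, recognised by the complement of the mature strand's start.
miR172b*: gCAGCACCattaagattcaca
miR172d*: gCAGCACCatcaagattcac
miR172c*: gCAGCATCatcaagattcaca
miR172a*: gTGGCATCatcaagattcaca

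Some records without counts matter for reading these values, because they are the partner or the reference form at a locus that has counts. The record named after Arabidopsis miR172a is the mature form beside miR172b*, and the one named after Arabidopsis miR172c has the same letters as miR172d. The record named after A. lyrata miR172c* is the partner of miR172d.
ath-miR172a: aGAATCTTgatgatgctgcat
ath-miR172c: aGAATCTTgatgatgctgcag
aly-miR172c*: gGAGCATCatcaagattcaca

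A record was taken as mature if it held the 14 bases at positions 3 to 16 of miR172d, with any base allowed at position 7. All mature records share this core by definition. With positions counted from 1 at the 5′ end of miR172d, miR172 differed by T7C (miR172d has the first base and the other record the second), which lies in the seed. miR172e differed by A1G and stopped at position 20. miR172g and miR172f carried G21T at the 3′ end. The 5′ end was that of miR172d in miR172e and miR172. It lay 1 base upstream in miR172c, 2 bases upstream in miR172g and 1 base downstream in miR172f, so these 3 have another seed although the core is the same. Among the miRNA* records, with positions counted along miR172b*, miR172d* differed by T11C and miR172c* by C7T and T11C. miR172a* differed most, by C2T, A3G, C7T and T11C. The table names each record after the miRBase entry it matched. The record of miR172d carries the name of a Citrus miR172b, from which it differs by G17T and A21G (the entry's base first), while its letters are those of the record named after Arabidopsis miR172c, with no difference.

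The most abundant member was miR172d, the mature strand, which rose in HT. HT gave 605 reads and HS 36, or 22.3 tags per 1000000 reads of the library (TPM; 95% CI 20.6 to 24.2, exact Clopper-Pearson) against 1.37 TPM (95% CI 0.960 to 1.90). The HT library stood far above the HS library, and the intervals do not overlap. The level was 16.3-fold higher in HT (95% CI 11.6 to 23.5; two-sided Fisher's exact test of its reads against the rest of the library, p = 1.02e-130, and 5.76e-129 after Benjamini-Hochberg adjustment over 169 records). Intervals cover counting error only: copies made by PCR carry no molecular identifiers here and are not independent.

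The second member by reads, miR172b*, had nearly the same level in both libraries. HT gave 36 reads and HS 38, or 1.33 TPM (95% CI 0.931 to 1.84) and 1.45 TPM (95% CI 1.02 to 1.99), and the intervals overlap. Its fold change (HT/HS) was 0.919 (95% CI 0.566 to 1.49; Fisher's exact test, p = 0.729). The interval leaves room for a fall or a rise of less than 2-fold and not for a change of the size seen for miR172d.

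miR172e, the mature form that starts with G and lacks the last base, was read 4 times in HT and 7 times in HS, or 0.148 and 0.267 TPM. Its fold change of 0.554 had a wide interval (95% CI 0.119 to 2.18; Fisher's exact test, p = 0.381), so no difference was detectable at this depth. The interval lies wholly below that of miR172d.

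The remaining 7 members had at most 3 reads in either library, the floor used here, which equals 0.111 TPM in HT and 0.114 TPM in HS, so no fold change is given. miR172a* had 2 reads in HT and 3 in HS. miR172d* and miR172g each had 1 read in HT and 1 in HS. miR172, miR172c and miR172c* had 1 read in HT and 0 in HS, and miR172f 0 in HT and 1 in HS. The 95% interval of a count of 0 reaches 0.136 TPM in HT and 0.141 TPM in HS, so these 4 members are not shown to be absent from either genotype.

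**Figure D1:**
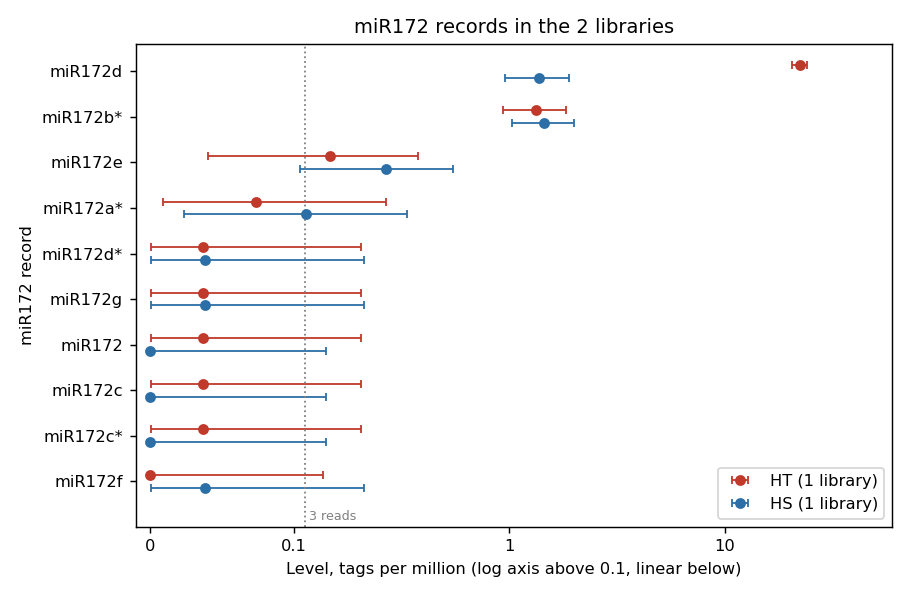
Level of each miR172 record in TPM (log axis above 0.1, linear below) in the HT library (red) and the HS library (blue), with exact 95% intervals of counting error; the dotted line marks 3 reads. miR172d reached 22.3 in HT against 1.37 in HS, while the intervals of the other 9 records overlap between the libraries.

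The order of the members changed between the libraries. In HT, miR172d stood alone at the top, followed by miR172b*, whose interval overlaps neither that of miR172d nor that of miR172e (95% CI 0.0403 to 0.378 TPM). In HS, miR172b* and miR172d changed places but do not differ beyond counting error: miR172d held 36 of their 74 reads, or 48.6% (95% CI 36.9 to 60.6, exact Clopper-Pearson). miR172e, at 0.107 to 0.549 TPM, lay below both in HS, and the members under it had intervals that overlap its own in both libraries. Among all 169 records, miR172d ranked 22 by reads in HT and 56 in HS, and miR172b* ranked 61 and 55.

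Summed over the 10 members, the family had 652 HT and 87 HS reads, or 24.1 and 3.31 TPM, a fold change of 7.27 (95% CI 5.80 to 9.20). Without miR172d the other 9 summed to 47 and 51 reads, a fold change of 0.894 (95% CI 0.588 to 1.36). The difference in the sum was therefore carried by 1 record. miR172d made up 92.8% of the reads on the counted miR172 records in HT (95% CI 90.5 to 94.7) and 41.4% in HS (95% CI 30.9 to 52.4). miR172b* made up 5.52% in HT and 43.7% in HS. Of the summed counts of all known miRNA records, in which identical sequences recur, the family held 1.70% in HT (95% CI 1.57 to 1.83) and 0.304% in HS (95% CI 0.244 to 0.375).

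**Figure D2:**
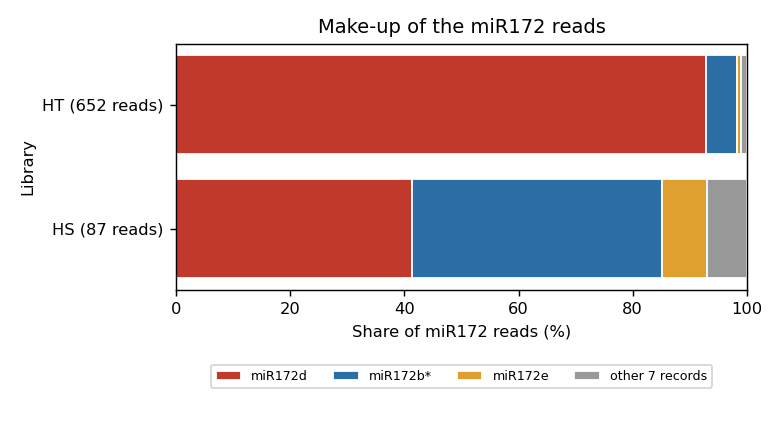
Share of the miR172 reads (%) that each member held in the HT library (652 reads) and the HS library (87 reads). miR172d filled 92.8% of the bar in HT and 41.4% in HS, where miR172b* held 43.7%.

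A ratio between 2 members within a library does not depend on the library size. miR172d had 16.8 reads for each read of miR172b* in HT and 0.947 in HS, so the ratio was 17.7 times as large in HT (95% CI of the odds ratio 9.65 to 32.4, exact conditional). Against the other 9 members together, the ratio was 12.9 in HT and 0.706 in HS, 18.2 times as large in HT (95% CI 10.5 to 31.7).

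By arm, the 6 mature records summed to 612 HT and 45 HS reads, a fold change of 13.2 (95% CI 9.74 to 18.3). The 4 miRNA* records summed to 40 and 42 reads, a fold change of 0.924 (95% CI 0.584 to 1.46). miRNA* reads were 6.13% of the family's reads in HT (95% CI 4.42 to 8.26) and 48.3% in HS (95% CI 37.4 to 59.2). The mature records other than miR172d had 7 reads in HT and 9 in HS, fewer than the miRNA* records in both libraries. These sums and shares depend on which records were given counts. Mature records such as those named after Arabidopsis miR172a and miR172e have none, so the balance of the 2 arms in the plant cannot be read from them.

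Within the mature arm most counted reads stood on records with 1 seed. Records with the same letters can have different counts, such as 1025 for aly-miR395c and 1070 for ath-miR395b in HT. A record's count is therefore not a count of 1 exact sequence. The shares below go by the letters of the records and not by those of each read. The records with the seed GAATCTT, miR172d and miR172e, held 609 of 612 mature reads in HT and 43 of 45 in HS. Forms with another 5′ end (miR172c, miR172g and miR172f) made up 0.327% of mature reads in HT (2 reads; 95% CI 0.0396 to 1.18) and 4.44% in HS (2 reads; 95% CI 0.543 to 15.1), and these intervals overlap. Forms with G at position 21 held 607 mature reads in HT and 36 in HS, and forms with T there 1 and 2. Other mature records with T at position 21, such as those named after Arabidopsis miR172a and miR172e, have no count. The contrast of G and T thus depends on which records were given counts. The form with C in the seed, miR172, had 1 read in HT beside the 605 reads of miR172d. In the miRNA* arm, miR172b* and miR172d* share the seed CAGCACC, with 37 reads in HT and 39 in HS.

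The table places every record on the B. rapa genome sequence, version 1.1, not on a broccoli genome, and chromosomes A01 to A10 are those of B. rapa. In all 31 records the end minus the start equals the length of the sequence, so 1 of the bounds lies just outside it, and which of them does cannot be told from the table. All 31 sequences were identical to the genome sequence given beside them. The gene annotation of that assembly was not used here, so host genes, exons and introns are not given. Records on 1 chromosome and strand whose starts lie within 300 bases of the next were taken as 1 locus. The 31 records fell on 13 loci, 8 of which had a record with counts. Opposite strands of 1 place count here as separate loci.

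The locus of miR172d is on A10, where the record spans A10:11965780-11965801 on the plus strand. Its partner strand there, the record named after A. lyrata miR172c*, starts 88 bases upstream and has no count, so a ratio of miRNA* to mature reads could not be formed for the member that changed. The letters of miR172d also stand on the minus strand at A04:2690065-2690086, in the record named after Arabidopsis miR172c, which has no count of its own. The 605 and 36 reads can therefore come from either locus, and the missing count at A04 is not an absence of reads. This was the only sequence shared by a record with counts and a record without. miR172c, at A04:2690065-2690087, is the same sequence with 1 more base at its 5′ end, and its 1 read in HT was the only count at that locus.

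The locus with both arms counted and the most reads was the other one on A10, that of miR172b*, at A10:16831534-16831555 on the plus strand. miR172g, the counted mature form there, lies at A10:16831607-16831630 and starts 73 bases downstream. The miRNA* had 36 reads against 1 mature read in HT and 38 against 1 in HS, so it made up 97.3% of the counted reads of the locus in HT (95% CI 85.8 to 99.9) and 97.4% in HS (95% CI 86.5 to 99.9). These shares are set by which forms were counted. The record named after Arabidopsis miR172a, of 21 bases at A10:16831609-16831630, ends where miR172g ends and has no count, and whether its reads were counted elsewhere was not tested. A larger output of the miRNA* strand at this locus can thus not be read from the ratio.

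The other locus with both arms counted is on the minus strand of A02, with miR172f at A02:2012443-2012463 and miR172d* at A02:2012516-2012536. It had 1 read in HT and 2 in HS over both arms. Both records have 20 bases and pair over 17 bases in a computed duplex (RNAduplex, -28.7 kcal/mol). The computed duplexes of miR172d with its partner (17 pairs, -29.1 kcal/mol) and of the record named after Arabidopsis miR172a with miR172b* (17 pairs, -26.3 kcal/mol) were alike in the number of pairs.

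miR172c* lies at A02:6174161-6174182 on the minus strand. Its mature partner starts 82 bases downstream and is listed in 3 records, among them one named after Arabidopsis miR172e, all without counts. On the opposite strand of the same place, 2 records named after rice and grape miRNAs overlap it, also without counts. miR172a* lies at A07:10771678-10771699 on the minus strand and has no mature record on that strand, but it overlaps a record named after a grape miR172b on the plus strand. miR172e, at A03:11440513-11440533 on the plus strand, and miR172, at A01:795746-795767 on the minus strand, have no partner record within 300 bases. Of the 5 loci where both arms were listed, 2 had a count on both.

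**Figure D3:**
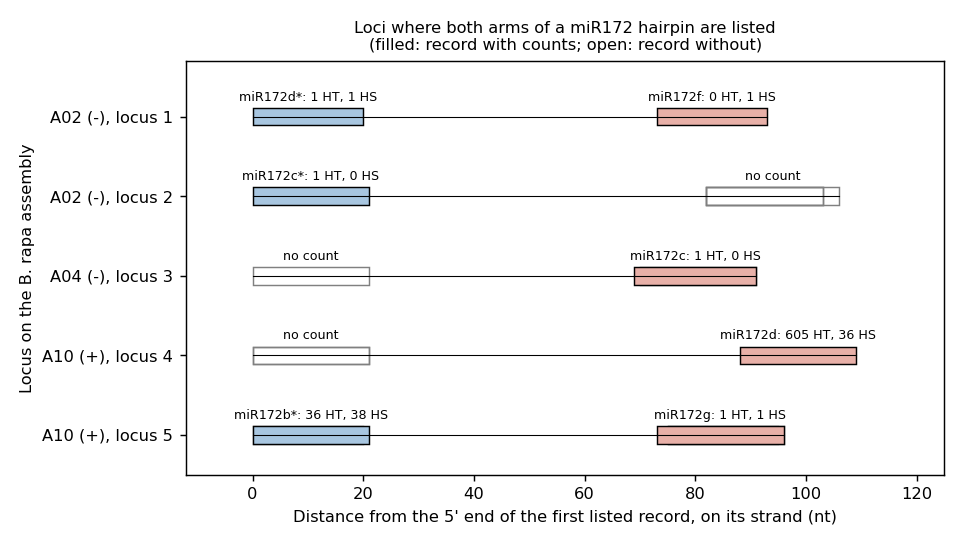
The 5 loci with records of both arms, drawn to scale by distance in nt from the 5′ end of the first record on its strand; filled boxes are records with counts (blue miRNA*, red mature), open boxes records without, and records without counts that lie inside a filled box are hidden by it. The 605 HT and 36 HS reads of miR172d stand opposite a partner without a count, and the 36 and 38 reads of miR172b* opposite a form with 1 read in each library.

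By these sequence motifs the 21 records without counts were 12 mature and 9 miRNA* records, with 14 distinct sequences. The mature ones named after rice and grape miRNAs on the plus strands of A02 and A07 overlap a miRNA* record on the opposite strand. Their letters are largely its complement, so the motif alone does not place them in the mature arm of a hairpin. Including the counted ones, the family had 23 distinct sequences and 11 seeds. The seed GAATCTT stood on 11 records and GAATCCT on 4, the latter on A01, on A02 and on the minus strand of A10. Of these 4, only miR172 on A01 was given a count, 1 read in HT and 0 in HS. The core of the mature strand (positions 3 to 16 of miR172d, with any base N at position 7) was found in 18 of the 1400 known records, 1.29%, all of them miR172 records. Its reverse complement was found in 5 records (0.357%), again all miR172. The motif AAGATTCA of the miRNA* arm was found on the strand of the record in 13 records (0.929%), all miR172, and its reverse complement in 5 (0.357%), 2 of them not miR172. Neither motif was found, on either strand, in the 54 sequences or the 153 distinct precursors of the deposited miRNA candidates.

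Against the whole table, the share of members called was close to that of all known records. A record was called when p, before adjustment, was under 0.001 and the fold change exceeded 2 in either direction. By this rule 1 of 10 members was called, beside 12.4% of all 169 known records (21 in all, with 8.28% higher and 4.14% lower in HT, or 14 and 7 records). That split depends on the scaling: it was 9 higher and 9 lower with the summed known miRNA counts as library size, 10 and 9 with the median of ratios or with known miRNAs outside miR172, and 12 and 8 with the trimmed mean of log2 ratios. An adjusted p under 0.05 was reached by 1 member and by 46 of the 169 records. Only 3 members reached 10 reads over both libraries, and 1 of these 3 was called, beside 22.1% of the 95 records with as many reads. Their median log2 fold change was -0.12, beside 0.30 over those 95 records. Scaling by other library sizes lowered every log2 fold change by 0.24 to 0.38. Relative to that shift, miR172d remained called, with a fold change of 12.5 to 13.8. Under these scalings miR172b* was at 0.705 to 0.776 and miR172e at 0.425 to 0.468, neither past the test. Both were below 1 without the shift, so a shift downward could not have moved them above 1.

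**Figure D4:**
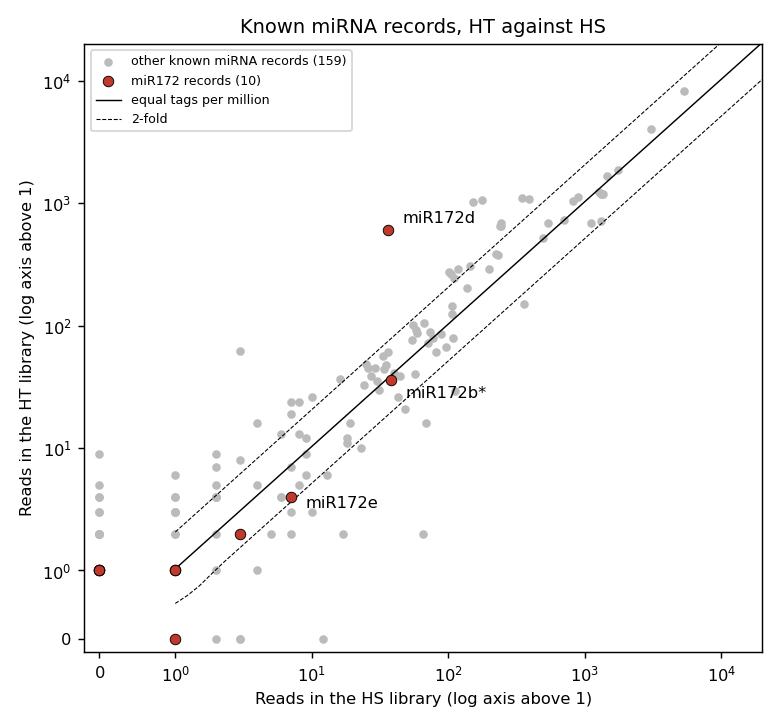
Reads of the 169 known miRNA records in the HT library against the HS library (both axes log above 1); red points are the 10 miR172 records, some of which coincide, the solid line marks equal TPM and the dashed lines a 2-fold difference. miR172d (605 against 36 reads) lies far above the upper dashed line, and miR172b* (36 against 38) lies near the solid line.

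The records with a fold change most like that of miR172d, among those that reached 10 reads over both libraries, were all of miR395, a family that targets ATP sulfurylases and a sulfate transporter. mtr-miR395h had 62 HT and 3 HS reads, and its 20.04-fold change (95% CI 6.55 to 99.8) does not differ from that of miR172d beyond counting error. The next, aly-miR395c, had 1025 and 151 reads, and its 6.58-fold change (95% CI 5.54 to 7.86) lies below the interval of miR172d. ath-miR395b followed with 1070 and 178 reads and a 5.83-fold change (95% CI 4.97 to 6.87), but it has the same letters as aly-miR395c, so the 3 records are 2 sequences and these 2 records are not separate observations. Likeness here is only nearness in log2 fold change over 2 libraries.

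Other miRNA numbers linked to flowering or phase change in Arabidopsis were counted by their names in the table. Of 53 such records (miR156, miR157, miR159, miR169, miR319 and miR399), 9 were called higher in HT and 0 lower, beside 8.28% of all records called higher. Those 9 records hold 5 distinct sequences, and over the whole table the 14 records called higher hold 9. With other library sizes 4 to 7 of the 53 were called higher. miR156 and miR157, which silence SPL mRNAs upstream of miR172, had 6 of 19 and 1 of 3 records called higher, and 2 to 5 of 19 and 1 of 3 under the other scalings. The miR156 record with most reads, smo-miR156b, had 687 HT and 242 HS reads, a 2.75-fold change (95% CI 2.37 to 3.201). For miR157 it was ath-miR157a, with 652 and 242 reads, a 2.61-fold change (95% CI 2.25 to 3.04). These 2 records and mtr-miR156g have the same letters and count as 1 observation, and their fold changes lie below the interval of miR172d. The records called higher hold 3 distinct sequences in miR156 and 1 in miR157, and this sequence is among both.

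miR169, whose targets are NF-YA transcription factors, had 2 of 14 records called higher (1 of 14 under the other scalings), and mtr-miR169i had 1108 HT and 344 HS reads, a 3.12-fold change (95% CI 2.77 to 3.54). miR159 and miR319, which silence GAMYB-like and TCP transcription factors, had 0 of 6 and 0 of 8 called. Their top records were ath-miR159b, with 289 and 200 reads (1.40-fold, 95% CI 1.17 to 1.69), and vvi-miR319g, with 8313 and 5306 reads (1.52-fold, 95% CI 1.47 to 1.57), both under the fold threshold. miR399, which silences PHO2, had 0 of 3 called, and its record with most reads, aly-miR399c*, had 2 HS reads and 0 HT reads.

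**Figure D5:**
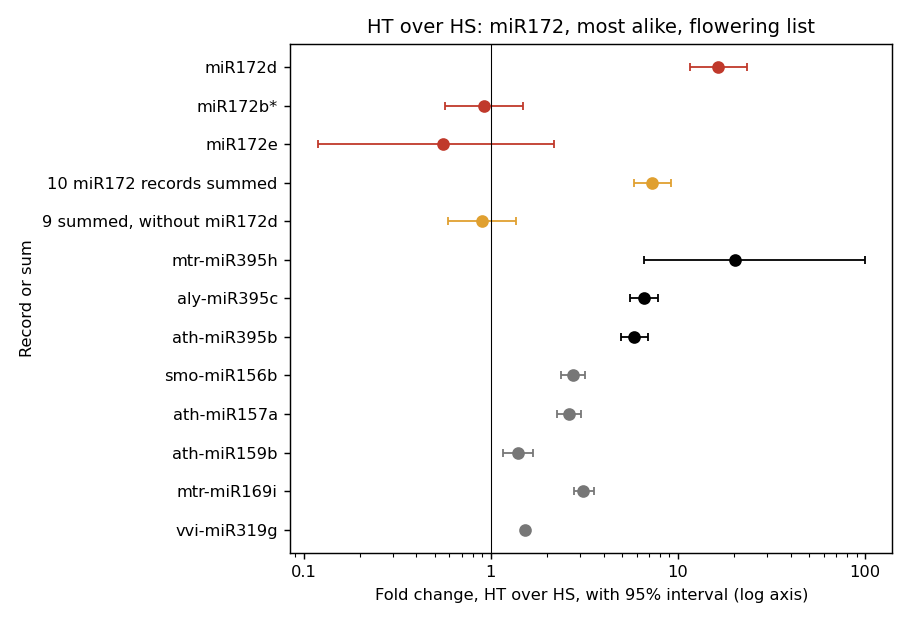
Fold change of HT over HS (log axis) with exact 95% intervals of counting error for the 3 miR172 members above 3 reads (red), the family sums (orange), the 3 records most like miR172d (black) and the record with most reads of each flowering number above the floor (grey). Only mtr-miR395h overlaps the interval of miR172d among the records shown, and the sum without miR172d lies at 0.894.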

How the data were processed

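The authors trimmed the reads, removed other non-coding RNA, matched the rest to plant miRNAs of miRBase (release 18 in the table's header, 19 in its description, another in the paper) and placed them on B. rapa sequence version 1.1. The deposited raw counts are whole reads per record, and the deposited TPM is reads scaled to the library total. The counts and TPM stand in a table with quoted line breaks and are kept under other units in the record of units. The authors' own fold changes and p-values were not used. Library sizes (27069903 HT, 26253036 HS) were recovered as summed counts over summed TPM.

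Reads were compared by two-sided Fisher's exact tests in scipy 1.17.1, and duplexes were folded with ViennaRNA 2.7.2. The p threshold for known miRNAs is the study's, and the fold change threshold, which the study states for new miRNAs only, was added here. In simulated data, 30 of 30 records with at least 50 reads and a 4-fold change were called, and 0 of 139 unchanged ones. The simulated counts varied by counting error only, which is what the test assumes. They therefore check the code and do not measure how often plants or PCR copies would give a false call. Alternatives changed the library size, read minimum, thresholds, pseudocount and the counting of identical sequences. All 10 counted members are named, with the 3 records nearest in log2 fold change to miR172d and the top record of each flowering number. Members and lists were chosen with earlier results of these data known.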

Additional observations from a re-analysis of the deposited data

How the results depend on the processing

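miR172d stayed called and higher in HT under all 6 alternatives tried for it (fold change 12.5 to 16.3), the count of called members stayed at 1 in all 11, and the sum without miR172d stayed below 1 in all 7 (0.685 to 0.895). Counting identical sequences once, at 16.3, could not change miR172d, since no other counted record has its letters. Read minimums and other thresholds also left its fold change and p as they were. The family sum was 5.57-fold higher in HT with the summed counts of known miRNAs as library size, 5.62-fold with the median of ratios, 5.65-fold with known miRNAs outside miR172 and 13.2-fold over mature records alone. Over mature records alone the share of miR172d was 98.9% in HT and 80.0% in HS. All miRNA* against all mature reads without miR172d gave a ratio of 5.71 in HT and 4.67 in HS, in place of 36.0 and 38.0 at the locus of miR172b*. With a fold change over 3, 10 known records were called (5 higher, 5 lower in HT) in place of 21 (14 and 7). In an alternative added after the data were seen, the flowering list had 4 records called higher with the summed counts, 5 with the median of ratios or with known miRNAs outside miR172, 7 with the trimmed mean, and 5 distinct sequences with identical ones counted once, in place of 9. No paired analysis was possible because each genotype has 1 library, which also leaves the differences between plants unmeasured in the sequencing. Members with at most 3 reads cannot show a difference at this depth, and reads of a sequence that stands at more than 1 locus cannot be assigned.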
